A study of Mus musculus with 4 samples.

Results

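The regions described here are the 5 kb bins of the mouse genome that the authors listed as differential for 5-hydroxymethylcytosine (5hmC) between LSH knockout and wild-type embryonic stem (ES) cells, that were not on their list for mouse embryonic fibroblasts (MEFs), and that lay in introns. They were chosen from the deposited lists of differential bins on chromosomes 1 to 19 and X. A bin counted as intronic if it overlapped the body of a protein-coding, lincRNA or processed transcript gene of the GENCODE M1 annotation but no exon and no base within 1 kb of a gene start. There were 1886 such bins out of 8139 bins listed in ES cells alone on these chromosomes, and they covered 9.43 Mb. The 2 lists together held 17148 bins on all chromosomes. They made up 1.71% of the 110290 intron bins with sequence, while the whole ES list took 1.67% of all bins and 1.83% of intron bins. The ES-only share was 2.99% of promoter bins, 3.3% of exon bins and 0.862% of intergenic bins. Classed by the bin midpoint, or with up to 10% of a bin allowed to be exon, the set grew to 4363 or 3367 bins. Being on the ES list, off the MEF list and in an intron is how the bins were chosen and is no finding.

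The series held 4 libraries of captured 5hmC DNA, 1 per group: wild-type ES cells, LSH knockout ES cells, wild-type MEFs and LSH knockout MEFs. ES cells were grown with serum and LIF, and MEFs with serum. The labels give neither the knockout allele nor the strain, passage or sex of the cells. With 1 library per group there was no replicate error and no test between genotypes, and the values below are descriptions with exact 95% binomial intervals in brackets that cover counting over bins only. The lists hold positions without a level, fold, p-value or direction, so a bin is called altered without saying which way, and the read depth is unknown. The cell labels could not be checked against marker genes, since no expression was measured.

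LSH, encoded by Hells, is a chromatin remodeler of the SNF2 family that is needed for normal DNA methylation in development. 5hmC is made from 5-methylcytosine by the TET enzymes, mostly at CpG dinucleotides, and in ES cells it is known to lie in gene bodies and at distal regulatory elements. Introns hold many such elements, and 5hmC within them can arise only where cytosine was first methylated. Hells itself (chromosome 19, 39005405 to 39045541) had 0 intron bins by this rule and 0 bins on either list.

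The 7 genes below are from those with the most ES-only intron bins. Their printed windows are CpG-dense extremes and not typical of the set. Whole 5 kb bins were listed, so whether the printed bases themselves were altered is unknown. Models that contain 10 or more other genes were left aside. For each gene, the 200 bases with the most CpG in its most CpG-rich ES-only intron bin are printed from the NCBIM37 (mm9) genome, plus strand, 5′ to 3′, with each CpG in capitals.
Wwox (chr8:117001266-117001465): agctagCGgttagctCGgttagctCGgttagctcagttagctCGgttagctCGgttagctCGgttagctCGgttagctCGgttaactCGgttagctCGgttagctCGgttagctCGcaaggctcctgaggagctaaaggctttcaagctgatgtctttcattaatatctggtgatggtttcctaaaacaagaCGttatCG
Slc10a7 (chr8:81156983-81157182): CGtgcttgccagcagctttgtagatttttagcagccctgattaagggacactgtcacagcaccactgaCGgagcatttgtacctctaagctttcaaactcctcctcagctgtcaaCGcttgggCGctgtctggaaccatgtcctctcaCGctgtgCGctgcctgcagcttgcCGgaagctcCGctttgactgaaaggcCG
Ank3 (chr10:69452099-69452298): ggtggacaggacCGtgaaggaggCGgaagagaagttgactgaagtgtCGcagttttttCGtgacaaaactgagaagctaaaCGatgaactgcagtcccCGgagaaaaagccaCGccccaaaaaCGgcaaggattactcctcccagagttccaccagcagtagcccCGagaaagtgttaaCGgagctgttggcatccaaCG
Slit3 (chr11:35126359-35126558): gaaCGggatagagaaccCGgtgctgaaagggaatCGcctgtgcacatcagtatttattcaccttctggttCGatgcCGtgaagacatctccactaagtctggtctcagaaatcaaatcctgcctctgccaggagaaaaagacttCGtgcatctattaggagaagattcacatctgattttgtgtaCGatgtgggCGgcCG
St6galnac3 (chr3:152962058-152962257): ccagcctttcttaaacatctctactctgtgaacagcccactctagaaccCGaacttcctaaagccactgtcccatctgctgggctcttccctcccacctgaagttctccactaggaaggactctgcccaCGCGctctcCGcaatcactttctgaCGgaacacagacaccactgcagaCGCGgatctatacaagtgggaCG
Sox5 (chr6:144144552-144144751): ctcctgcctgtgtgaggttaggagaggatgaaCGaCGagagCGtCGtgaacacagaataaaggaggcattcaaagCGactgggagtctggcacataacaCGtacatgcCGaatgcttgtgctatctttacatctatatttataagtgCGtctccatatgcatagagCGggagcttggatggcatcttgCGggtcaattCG
Cdh13 (chr8:121391290-121391489): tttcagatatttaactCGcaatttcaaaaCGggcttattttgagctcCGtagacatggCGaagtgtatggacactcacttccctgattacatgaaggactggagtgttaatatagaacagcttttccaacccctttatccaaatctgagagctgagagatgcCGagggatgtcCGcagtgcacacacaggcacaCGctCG

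These windows differed in kind. The Wwox window, in intron 6 of 16, held 14 CpG, and the word cggttagct occurred in it 10 times. In the other windows no word of 9 bases occurred more than 1 time. The Slc10a7 and Slit3 windows held 9 CpG each, those of St6galnac3 and Cdh13 8 each and that of Sox5 11. The Ank3 window, with 11 CpG, came from the ES-only intron bin with the most CpG of all 1886, at 31.2 CpG per kb (chromosome 10, 69450001 to 69455000). That bin was free of stop codons in 1 reading frame over 4998 of its 5000 bases, and 0% of its sampled 32-base words occurred elsewhere in the genome. It lay in intron 39 of 45 of the annotated model, so at this bin the name intron rests on an annotation with no exon there. Ank3 encodes ankyrin G, whose neuronal isoforms are known to use a very long exon, and whether the bin overlaps it was not tested.

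Long open frames were uncommon in the set. Of the ES-only intron bins, 16 (0.848% [0.486% to 1.37%]) held a stop-free frame of at least 1000 bases, against 4.86% of all intron bins, 7.24% when these were weighted to the CpG density of the ES-only bins, and 0.514% of MEF-only intron bins. The weighting did not match repeats. Bins with over 20% of words repeated were 3.02% of ES-only and 2.38% of MEF-only intron bins, but 16.7% of all intron bins and 14.4% after weighting. After Ank3, a bin in Rere (chromosome 4, 149885001 to 149890000) had 2358 stop-free bases, with 30.9% of its words repeated elsewhere. A bin in the ubiquitin ligase gene Nedd4 (chromosome 9, 72540001 to 72545000) had 1452 with 0% repeated, and a bin in Dnmbp (chromosome 19, 43960001 to 43965000) had 1266 with 4.23% repeated. Exact tandem tracts with a unit of up to 10 bases and a length of at least 50, occurred in 22.5% of ES-only intron bins [20.6% to 24.4%], in 22.5% of MEF-only intron bins and in 24.3% of all intron bins.

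ES-only intron bins were rich in CpG. Their median was 11.6 CpG per kb [11.4 to 11.6], with quartiles of 9.4 and 14, against 7.2 in all intron bins, 10.6 in the 2726 MEF-only intron bins and 12.6 in the 128 intron bins on both lists. Median GC content was 45.6%, 41.4%, 44.8% and 46.7% in the same order. Of the ES-only bins in other classes, promoter bins had a median of 17.2 CpG per kb, exon bins 13.4 and intergenic bins 11.6. When all intron bins were divided into 10 equal groups by CpG density, 0.0725% of the lowest group were ES-only bins [0.0313% to 0.143%] and 5.7% of the highest [5.28% to 6.15%]. The highest group held 33.4% of the ES-only intron bins and the lowest 0.424%. The MEF-only share ran over the same groups from 0.136% to 6.27%, and in the sixth group, from 7.2 to 8.2 CpG per kb, they were 2.29% [2.02% to 2.59%] against 0.97% for ES-only bins [0.796% to 1.17%].

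**Figure D1:**
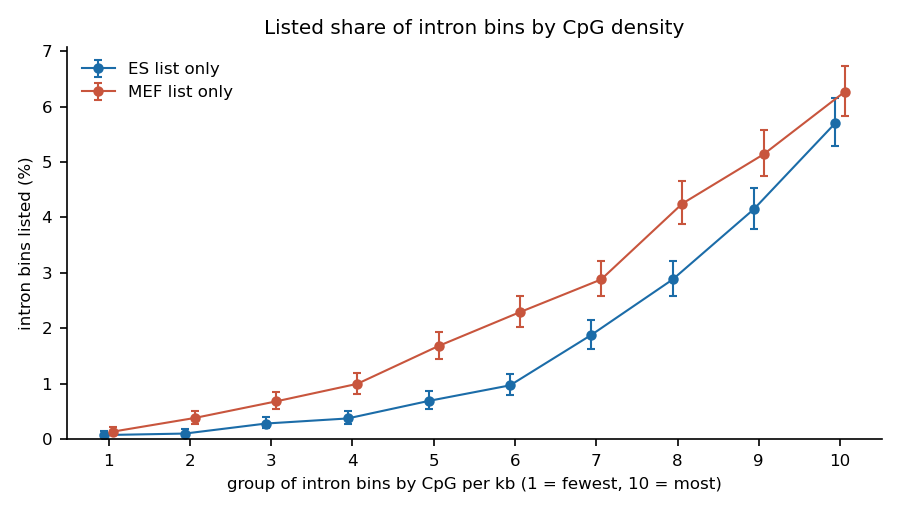
Share of intron bins on the ES list only (blue) and on the MEF list only (red), in percent, for 10 equal groups of all intron bins ordered by CpG per kb; bars are exact 95% binomial intervals over bins. The ES-only share goes from 0.0725% in the lowest group to 5.7% in the highest, and the MEF-only share from 0.136% to 6.27%.

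The extremes were few. After Ank3, the bins with the most CpG lay in Alx4, a homeobox gene of limb and skull patterning (29 CpG per kb, chromosome 2, 93485001 to 93490000), Gm17245 (28.6, chromosome 8, 108860001 to 108865000) and Gm16882 (28.2), in which 17% of words were repeated. Tbc1d16 and Nfil3, a basic leucine zipper factor gene, followed with 27 each. The Nfil3 bin (chromosome 13, 53070001 to 53075000), 1442 bp from the gene start, held 36 CpG within 200 bases, the most of any ES-only intron bin. B230323A14Rik had 26.4, Zfp407 24.6, Wwox 24.4 and Igf2bp1, an RNA-binding protein gene, 23.8. At the other end, bins in Tmem167 (2.2 CpG per kb), Ppp1r14c (2.8), Fam193a (3.2), Rfx7 (3.4) and Gulp1 (3.6) had the fewest, with 33.3%, 15.5%, 10.7%, 11.8% and 25.3% of words repeated. A 200-base window with over 50% GC and an observed-to-expected CpG ratio above 0.6, the composition of a CpG island, was present in 40.7% of ES-only intron bins [38.4% to 42.9%]. The share was 18.7% in all intron bins and 42.8% when these were weighted to the CpG groups of the ES-only bins, which lay inside that interval. Bins with over 20% of words repeated made up 3.02% of the ES-only intron bins [2.3% to 3.9%], against 16.7% of all intron bins and 14.4% after the same weighting.

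Short words recognised by transcription factors were counted in each 5 kb bin, on both strands, and no word searched contained another. A match is a description of the sequence and not a binding site. The KLF4 word GGGTGTGG occurred in 38.5% of ES-only intron bins [36.3% to 40.8%], in 32.2% of MEF-only intron bins, in 25.3% of all intron bins and in 32.2% of all intron bins after CpG weighting. The ESRRB word TCAAGGTCA occurred in 14.9% [13.3% to 16.6%], 13.2%, 10.7% and 12.2%. KLF4 and ESRRB are factors of the pluripotency network. The SOX2 core CATTGTT occurred in fewer ES-only bins, 51.3% [49% to 53.6%], than in all intron bins, 64%, or in the weighted bins, 56.1%. The OCT4 octamer ATGCAAAT went from 34.8% in all intron bins to 27.4% after weighting, close to the 27.9% in ES-only bins [25.9% to 30%].

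Weighting brought all intron bins closer to the ES-only bins or past them, for words that contain CpG and for words that do not. The SP1 word GGGCGG occurred in 51.1% [48.8% to 53.4%] against 31.3% of all intron bins and 49.5% after weighting. The HpaII site CCGG occurred in 95.8%, against 83.9% and 95.6%. The E-box CACGTG of MYC occurred in 56.2% [53.9% to 58.4%] against 39.1% and 52.3%, the NRF1 core GCGCATGC in 9.81% [8.5% to 11.2%] against 5.38% and 8.28%, and the CRE word TGACGTCA in 3.5% [2.72% to 4.43%] against 2.58% and 4.49%. Of the words without CpG, the AP-1 word TGAGTCA occurred in 62.4% [60.1% to 64.5%] against 55.4% and 57%. The share of the CTCF core AGGGGGC was 42.4% [40.2% to 44.7%] against 30.7% and 39.4%, of the ZFX word AGGCCT 81.1% [79.3% to 82.9%] against 70.5% and 78.4%, and of the TEAD word GGAATG 93.8% [92.7% to 94.9%] against 94% and 92.9%. MEF-only intron bins held the AP-1 word in 63.1% and the CTCF core in 42.3%.

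ES-only intron bins lay nearer to gene starts than intron bins at large. The median distance from the bin edge to the nearest gene start was 33664 bp, against 58760 bp in all intron bins, 43221 bp after CpG weighting and 41877 bp in MEF-only intron bins. Classed by the bin midpoint, the ES-only median was 21663 bp, with no matching value computed for all intron bins. Under 10 kb from a start, 2.79% of intron bins were ES-only bins [2.53% to 3.08%], where the CpG groups alone would give 2.13%. Beyond 200 kb the share was 0.411% [0.326% to 0.512%], where they would give 0.931%. The MEF-only share went from 3.11% under 10 kb to 2.32% between 100 and 200 kb, and was 0.858% beyond it. The share of ES-only bins that lay in the first intron was 32.2% [30.1% to 34.4%], against 25.6% of all intron bins, 28.3% after weighting and 31.1% of MEF-only intron bins. It depended on the class rule, at 21.4% by the bin midpoint and 21.1% with up to 10% exon. The share over all intron bins was not computed under these rules, so neither value can be set against 25.6%. Along the gene, the ES-only share was 2.01% at 10 to 20% of its length [1.78% to 2.26%] and 1.24% at 90 to 100% [0.971% to 1.57%], with 1.76% and 1.62% given by CpG groups. Of the ES-only intron bins, 50 (2.65%) came within 1 kb of the start of any other annotated transcript of these genes. Another 21 (1.11%) is the count that overlapped an exon of another gene type such as a pseudogene. Neither share was computed over all intron bins.

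The ES-only share also differed by host gene length, which was not separated from distance to a gene start. Among intron bins in genes under 50 kb, 2.75% were ES-only bins [2.44% to 3.1%], and in genes over 1 Mb 0.481% [0.367% to 0.618%], where CpG groups would give 2.17% and 0.945%. MEF-only intron bins were most frequent in genes of 100 to 200 kb, at 3.36% [3.13% to 3.6%]. Introns of 10 to 20 kb had 2.38% ES-only bins [2.15% to 2.63%], and introns over 200 kb 0.685% [0.55% to 0.844%]. For these, CpG groups would give 1.97% and 1.15%.

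**Figure D2:**
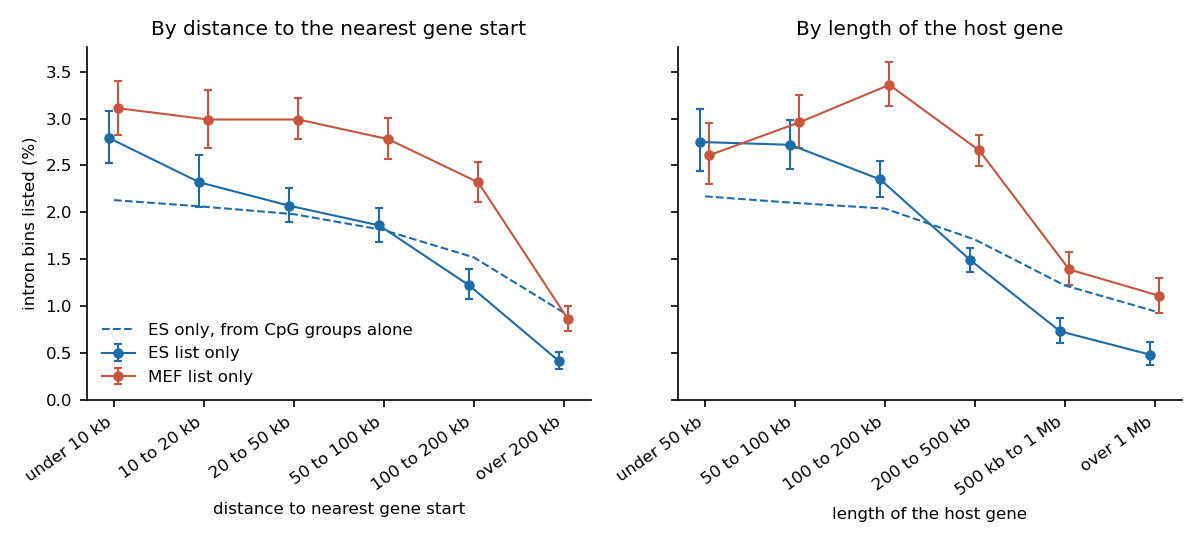
Share of intron bins on the ES list only (blue) and on the MEF list only (red), in percent, by distance to the nearest gene start (left) and by length of the host gene (right); bars are exact 95% intervals over bins, and the dashed line is the ES-only share given by the CpG groups alone. The ES-only share runs from 2.79% to 0.411% with distance and from 2.75% to 0.481% with gene length.

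At the limits of the rule, bins just inside and just outside differed by few bases of overlap. The ES-only intron bin nearest to an exon, in the kinase gene Nuak1 (chromosome 10, 83850001 to 83855000), lay 0 bp from it. There were 22 within 100 bp of an exon, a count not made over all intron bins. Just outside the rule, an ES-only bin of the potassium channel gene Kcnj6 (chromosome 16, 94970001 to 94975000) overlapped an exon by 5 bp and a bin at Zdhhc7 (chromosome 8, 122600001 to 122605000) by 6 bp. In total 246 ES-only exon bins overlapped exons by at most 100 bp. On the promoter side, the nearest ES-only intron bin, in Yipf1 (chromosome 4, 107025001 to 107030000), lay 1043 bp from a gene start, and a bin at Cd80 (chromosome 16, 38460001 to 38465000) was left out for 13 bp within the 1 kb zone.

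The 1886 bins lay in 1346 gene models, 13.8% of the 9724 models with an intron bin. By the bin midpoint, or with up to 10% exon, the hosts numbered 3165 or 2390. Of the hosts, 1256 were protein-coding, 55 lincRNA and 35 processed transcript genes. By bin, these types held 94.4%, 3.55% and 2.01% of the ES-only intron bins, against 93.6%, 3.11% and 3.33% of all intron bins. There were 1002 hosts with 1 ES-only intron bin, 344 with 2 or more and 25 with 5 or more. Hosts had more room, with a median of 13 intron bins against 4 in all models with an intron bin. Of models with fewer than 10 intron bins, 7.54% were hosts, and of those with 20 to 49, 35.8%. Of the ES-only intron bins, 55 (2.92%) lay inside more than 1 gene model, against 2.04% of all intron bins. For 29 (1.54%) the only host was a model that contains 10 or more other genes. The same held for 0.644% of all intron bins, 1.5% after CpG weighting and 1.87% of MEF-only intron bins. The 29 ES-only bins cannot be assigned to a gene. Of such models Gm20388 spanned 21 ES-only bins, Fgfr2 19 and Gm16736 3, counting bins that also lie in a gene inside them.

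Among ordinary models Wwox had the most, 10 of 164 intron bins (chromosome 8, 116963555 to 117876608). Wwox encodes a WW-domain oxidoreductase and spans a common fragile site. The midpoints of its ES-only bins lay 38.9 to 629 kb from the gene start, in introns 6, 8, 13, 14 and 15, with 10.8 to 24.4 CpG per kb. It also had 13 MEF-only intron bins and none on both lists, and the median distance from an ES-only bin to the nearest MEF-only bin was 40 kb. Counting every model that contains a bin, genes with 7 ES-only bins each were Slc10a7, Ank3, Tshz2, Slit3, St6galnac3, Sox5, Cdh13 and Pde4d. Slc10a7, a solute carrier gene (chromosome 8, 81033234 to 81257904), was the most densely altered of these, with 20.6% of its 34 intron bins and 0 MEF-only intron bins. Its 7 bins lay in introns 4, 5 and 9, between 81060001 and 81230000, with 8.8 to 13.6 CpG per kb.

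Ank3 (chromosome 10, 68996970 to 69490184) had 3 of its 7 bins in the first intron, at 69035001, 69100001 and 69105001, and the others in introns 9, 29, 32 and 39. Tshz2, a teashirt zinc finger gene (chromosome 2, 169458671 to 169897316), had 6 MEF-only bins besides and 1 on both lists. Of its 7 ES-only bins, 4 also lay in Gm16898, a shorter model inside it, and cannot be assigned to one of the 2 genes. Slit3, a secreted ligand of Robo receptors in axon guidance (chromosome 11, 34934726 to 35522009), had 6 MEF-only bins, with a median of 25 kb between an ES-only bin and the nearest of them. In St6galnac3, a sialyltransferase gene (chromosome 3, 152868369 to 153388026), that median was 10 kb, with 8 MEF-only bins. Sox5, a SoxD transcription factor gene (chromosome 6, 143776945 to 144730497), Cdh13, a GPI-anchored cadherin gene (chromosome 8, 120807633 to 121848821), and Pde4d, a cAMP phosphodiesterase gene (chromosome 13, 109240142 to 110743669), had 3 MEF-only bins each. Their ES-only bins were 4.58%, 3.68% and 2.57% of their intron bins, the lowest shares among the genes with 7. These shares were still above the 1.71% of all intron bins. The share was 0.73% in genes of 500 kb to 1 Mb, the class of Sox5. In genes over 1 Mb, the class of Cdh13 and Pde4d, it was 0.481%. The genes were picked for high counts, so a share above that of their length class is no finding.

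Genes with 6 were Fto, an RNA demethylase gene (chromosome 8, 93837431 to 94192338), the zinc transporter gene Slc39a11, Arl15, a GTPase gene of the ARF-like family, Agap1, an ARF GTPase-activating gene, and the teneurin gene Odz4. Fto had as many MEF-only bins as ES-only bins, 6, and Slc39a11 had 5. Arl15 had 0 MEF-only intron bins (chromosome 13, 114584713 to 114947669), with its ES-only bins between 114645001 and 114860000. Genes with 5 were Nmnat2, an NAD synthesis enzyme gene (19.2% of 26 intron bins), the sialyltransferase gene St3gal3 (17.9% of 28), Ppp1r9a, Myo3b, Zbtb7c, the Notch coactivator gene Maml3, Zfp536, Spock1 and Arhgap26. Of the 26 genes with 4, Rras2, a Ras-family GTPase gene (chromosome 7, 121190299 to 121261295), had the largest share, with 4 of 12 intron bins, or 33.3%, all in its first intron between 121215001 and 121255000. Of these 24 genes, Slc10a7, Arl15, St3gal3, Zfp536, Spock1 and Rras2 had 0 MEF-only intron bins, though St3gal3 had 1 bin on both lists. Zfp536, Spock1 and Rras2 had 0 MEF bins of any class. In the order named, the genes without MEF-only intron bins had 34, 67, 28, 80, 85 and 12 intron bins. Over all intron bins the MEF-only share was 2.47%. Only 24.8% of all models with an intron bin held a MEF bin of any class, but most are shorter, with a median of 4 intron bins. How often genes as long as these had 0 MEF-only intron bins was not computed.

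**Figure D3:**
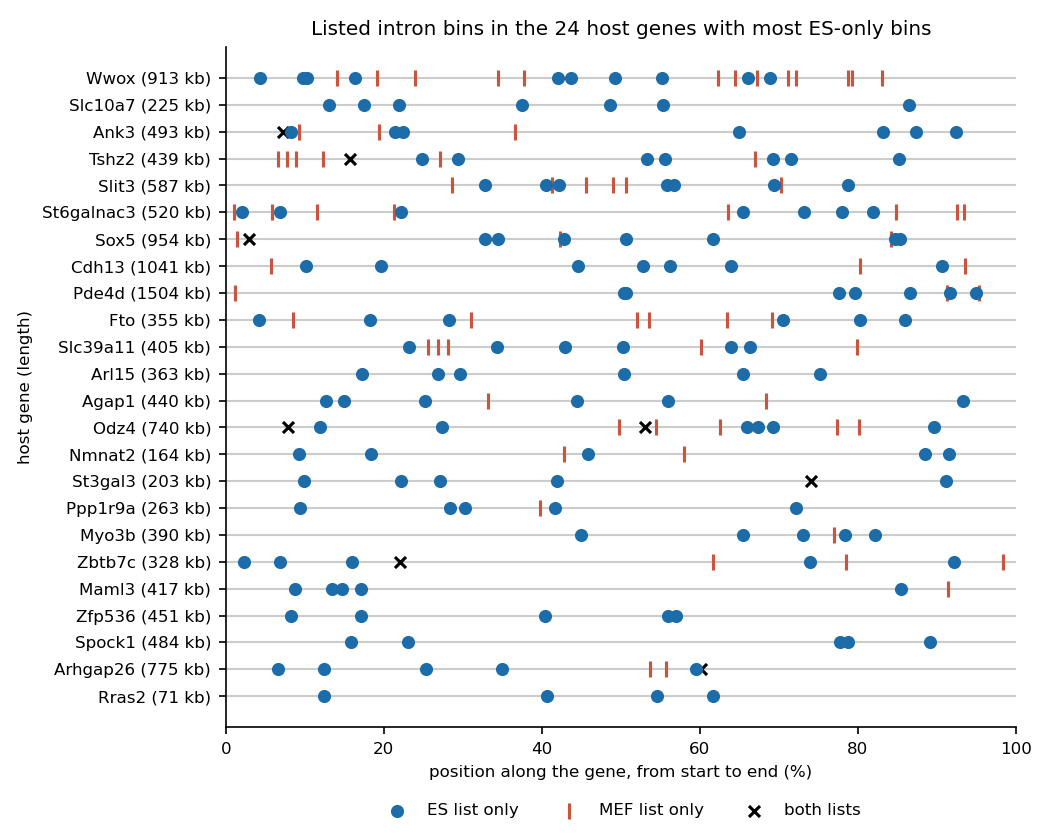
Altered intron bins in the 24 host genes with the most ES-only intron bins, one row per gene with its length; the horizontal axis is the position along the gene from start to end, in percent. Blue dots are bins on the ES list only, red ticks bins on the MEF list only and crosses bins on both; Wwox has 10 dots and 13 ticks, and Slc10a7 has 7 dots and no tick.

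ES-only by bin was often not ES-only by gene. Of the ES-only intron bins, 58.2% [55.9% to 60.4%] lay in a host that also held a MEF bin of some class, against 43.5% of all intron bins and 54.8% after CpG weighting. By gene, 668 of 1346 hosts, or 49.6%, held a MEF bin, against 24.8% of all models with an intron bin, which are shorter. Touching a MEF bin were 9.28% of the ES-only intron bins [8.01% to 10.7%], against 4.9% of all intron bins and 8.13% after weighting. A MEF bin started within 50 kb of 48.1% of them, against 27% of all intron bins. An ES exon bin lay in the host of 39.9% [37.7% to 42.1%], against 20.5% of all intron bins and 32.5% after weighting. An ES promoter bin lay in the host of 7.9% [6.72% to 9.21%], against 4.32% and 7.28%. Among MEF-only intron bins these shares were 34.7% for an ES exon bin and 8.33% for an ES promoter bin.

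Most ES-only intron bins touched no other ES bin, but many had one nearby. Of the ES-only intron bins, 10.8% [9.45% to 12.3%] touched another ES bin, against 3.76% of all intron bins and 7.13% after weighting. Another ES bin started within 10 kb of 19.1% of them, within 25 kb of 37.9% and within 50 kb of 58.6%, against 7.18%, 15.5% and 25.7% of all intron bins. Much of this was shared by MEF-only intron bins, of which 15%, 31.5% and 48.5% had an ES bin within these distances. An ES bin touched 7.85% of the MEF-only intron bins. MEF-only intron bins touched another MEF bin in 23.4% [21.8% to 25%]. There were 1756 ES-only intron bins with no touching ES-only intron bin, 62 touching pairs and 2 runs of 3. The runs of 3 lay in intron 3 of Dnmbp, a scaffold gene that binds dynamin (chromosome 19, 43960001 to 43975000, mean 15.7 CpG per kb), and in intron 7 of Tiam1, a RAC exchange factor gene (chromosome 16, 89925001 to 89940000, 15.4). Among the pairs, those with the most CpG were within Gm20388 (chromosome 8, 122935001 to 122945000, 20.9), C130039O16Rik (chromosome 12, 85545001 to 85555000, 19.1), Msrb3, a methionine sulfoxide reductase gene (chromosome 10, 120320001 to 120330000, 18.9), and Zfp423 (chromosome 8, 90260001 to 90270000, 18.8). Wwox, Pcbd2, the forkhead gene Foxk1 and Maml3 followed with 17.3, 16.2, 15.6 and 15.5.

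The 12 gene lists were set against 13.8% of all models with an intron bin that host an ES-only intron bin and against 1.71% of all intron bins. Lists written for these data carry no test. A share by genes depends on how many intron bins a gene has. The share by bins also differed by host gene length, from 2.75% in genes under 50 kb to 0.481% in genes over 1 Mb. The lists were not matched for gene length. Of the genes for chromatin and DNA modification with an intron bin, 14 of 55 were hosts (25.5%), and 20 of their 569 intron bins were ES-only bins (3.51% [2.16% to 5.38%]), where CpG groups would give 2.08%. Arid1b and Arid5b, which encode ARID-domain proteins, had 4 and 3, the deacetylase gene Hdac4 had 2 touching bins (chromosome 1, 93940001 to 93950000), and the acetyltransferase gene Ep300 had 1 of its 2 intron bins (chromosome 15, 81420001 to 81425000). The DNA methyltransferase gene Dnmt3a and the demethylase gene Kdm1a had 1 each.

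Developmental transcription factors with long introns were hosts in 33 of 76 cases (43.4%), and 70 of 2848 bins (2.46% [1.92% to 3.1%]) were ES-only bins. This was above 1.71% but below the 2.73% given by CpG groups, so the direction turned with the CpG content of these genes. Tshz2 and Sox5 had 7 each, 4 of those in Tshz2 shared with Gm16898, Zfp536 5 and Zfp704 4 (chromosome 3, between 9465001 and 9575000). WNT pathway genes had 16 of 534 bins (3% [1.72% to 4.82%]) against 2.62% by CpG groups, in 11 of 44 genes. Ror2, a WNT receptor kinase gene, had 3, and Lgr6, a receptor for R-spondins, Daam1, a formin gene, and Tcf7l2, the gene of a nuclear effector of WNT signals, had 2 each. The TGF-beta and BMP genes had 9 of 371 bins (2.43% [1.12% to 4.55%]) in 9 of 32 genes, 1 each, among them the ligand gene Gdf6, the receptor gene Acvr2b, the effector gene Smad1 and the inhibitor gene Smad7. CpG groups gave 2.57% for them.

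Pluripotency genes had few intron bins, 112 in 14 genes, of which 4 were ES-only bins (3.57% [0.982% to 8.89%]) against 2.84% by CpG groups. Esrrb, an orphan nuclear receptor gene of the naive state, had 2 (chromosome 12, between 87765001 and 87780000), and Jarid2, a Polycomb partner gene, and Fbxo15 had 1 each. Pluripotency genes had 5 MEF-only intron bins (4.46%), against 2.47% of all intron bins. Their ES-only and MEF-only shares thus both lay above those of all intron bins, 1.71% and 2.47%. Counts of 4 and 5 bins are too few to rank the 2 sides. Of the imprinted genes 4 of 22 were hosts, with 5 of 265 bins (1.89% [0.615% to 4.35%]) against 1.72%. Trappc9 had 2, and Ddc, Kcnq1 and Airn, the antisense transcript at Igf2r (chromosome 17, 12975001 to 12980000), had 1 each. The FGF and receptor kinase genes had 28 of 1353 bins (2.07% [1.38% to 2.98%]), but 19 of the 28 came from the Fgfr2 model that contains 37 other genes. Without it 9 of 982 remained (0.916%), below the 1.71% of all intron bins.

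The lists with smaller shares were mostly those of neural and matrix genes. Synaptic genes had a median of 105 intron bins per gene and ion channel genes 51, against 4 in all models with an intron bin. In genes of 500 kb to 1 Mb the ES-only share was 0.73%. Whether the small shares of long genes go beyond their length was not tested. Synaptic adhesion and scaffold genes had 38 of 6424 bins (0.592% [0.419% to 0.811%]) and CpG groups gave 0.919%, although 20 of 53 genes (37.7%) were hosts. Odz4 had 6, the related teneurin gene Odz3 and the postsynaptic scaffold gene Dlgap4 4 each, and Magi1 3. Cntnap2 had 3 of 422 intron bins. Genes for ion channels and glutamate receptors had 26 of 3475 (0.748% [0.489% to 1.09%]) against 1.14%, with 4 in Kcnn3, a calcium-activated potassium channel gene (chromosome 3, between 89400001 and 89455000). Axon guidance genes had 22 of 1719 (1.28% [0.804% to 1.93%]) against 1.48%, 7 of them in Slit3, 3 in Sema5b and 2 each in Sema4d, Epha4 and Ntn1. Cadherins, integrins and other adhesion genes had 26 of 1947 (1.34% [0.874% to 1.95%]) against 1.62%, 7 each in Ank3 and Cdh13.

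Genes of the extracellular matrix and of fibroblasts had 4 of 648 (0.617% [0.168% to 1.57%]) against 1.84% by CpG groups. These were 1 bin each in Adamts9, Col18a1, Col4a2 and Col23a1, and the Adamts9 bin also lay in A730049H05Rik, a shorter model. Their MEF-only share was 4.32% (28 bins), against 2.47% of all intron bins. Other lists had a higher MEF-only share, among them the WNT list at 6.55%, the TGF-beta and BMP list at 5.66% and the chromatin list at 4.75%. The pluripotency list had 4.46% and the developmental factors 4.35%. The synaptic list had the lowest, 0.763%. Which of these differences would recur in other cultures could not be tested with 1 library per group.

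**Figure D4:**
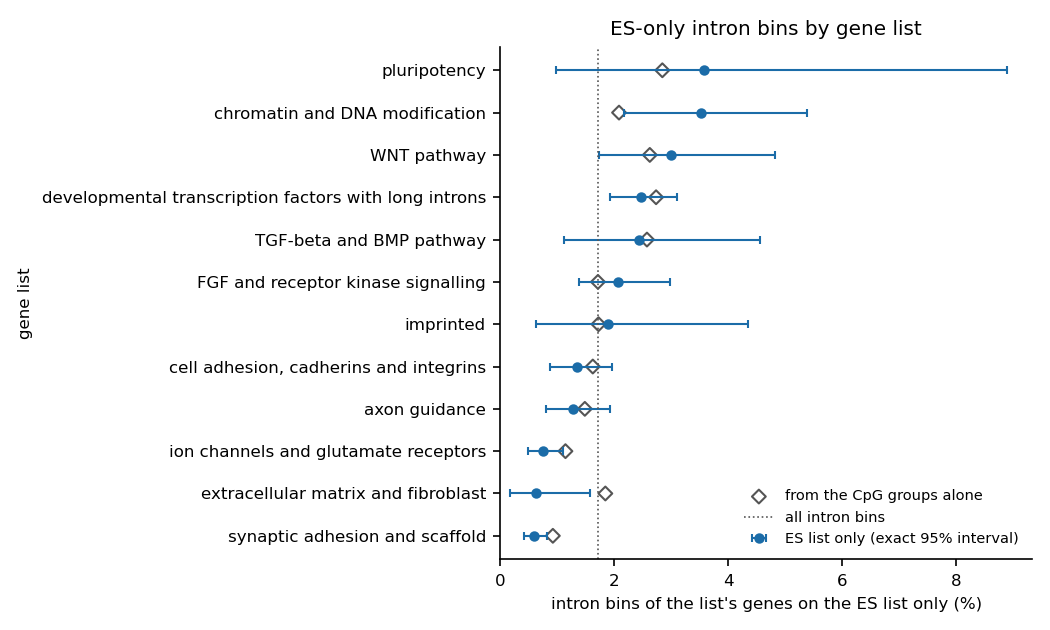
Share of the intron bins of each gene list that are on the ES list only (dots, in percent, with exact 95% intervals), beside the share given by the CpG groups of the list's bins alone (diamonds) and the share of all intron bins (dotted line, 1.71%). The synaptic list lies lowest at 0.592% and the pluripotency list highest at 3.57%, with the widest interval.

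Among chromosomes, X stood apart. Of its 5882 intron bins 1 was an ES-only bin (0.017% [0.00043% to 0.0947%]), where CpG groups would give 0.589%. X had 12 MEF-only intron bins (0.204%), also fewer than any autosome by share, and 18 ES and 52 MEF bins of all classes. Its intron bins had a median of 4.6 CpG per kb. Over the autosomes the ES-only share ran from 1.02% on chromosome 14 [0.776% to 1.31%], where CpG groups gave 1.56% and the MEF-only share was 3.07%, to 2.41% on chromosome 8 [2.02% to 2.84%], where CpG groups gave 2.28%. Chromosome 19 had 2.38% ES-only [1.85% to 3.01%] and the highest MEF-only share, 5.18%. The MEF-only share ranged more widely over autosomes than the ES-only share, from 1.24% on chromosome 12.

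**Figure D5:**
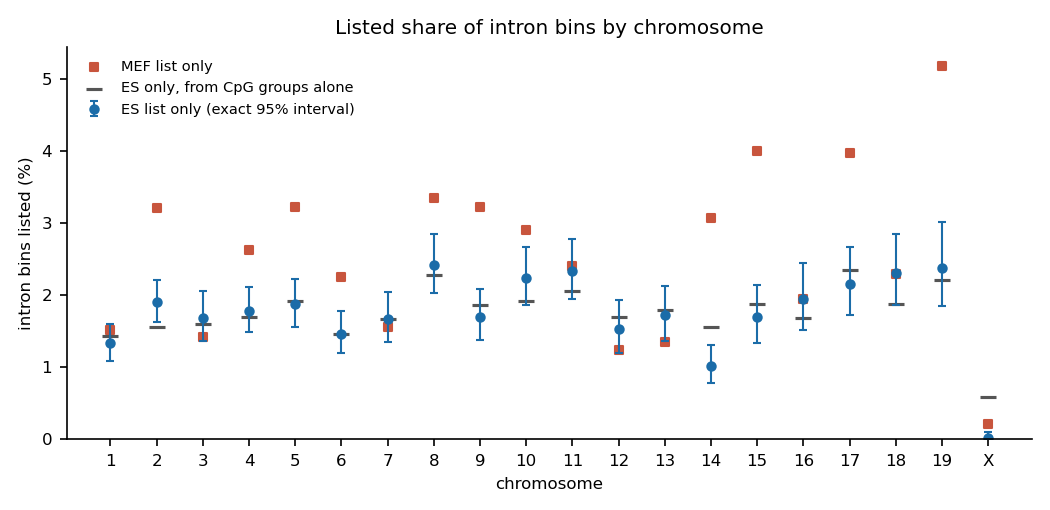
Share of the intron bins of each chromosome on the ES list only (blue dots, in percent, with exact 95% intervals over bins) and on the MEF list only (red squares), with the ES-only share given by CpG groups alone (grey dashes). X has 0.017% ES-only bins, and the autosomes lie between 1.02% and 2.41%.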

How the data were processed

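DNA fragments with 5hmC were captured by glucosylation, biotin tagging and streptavidin, per the series' design text. The submitters' processing notes name BWA, SAMtools 1.3.1 and mm9, without roles. The sources used here do not give how differential bins were called. The 2 deposited lists hold positions of 5 kb bins and no level.

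The running bin numbers of 8545 ES and 8972 MEF bins on chromosomes 1 to 19 and X all equalled those computed from NCBIM37. Gene models were 26031 GENCODE M1 genes of 3 types, the longest locus per name. For intron number and place, a bin in several models was put in the shortest that holds fewer than 10 others; counts per gene include every model that contains the bin. Intron number counts gaps between merged exons. A bin had to be at most 50% undetermined, which removed 0 members. Repeats were measured by 32-base words, 1 in 64 sampled. CpG weighting is a direct standardisation over 10 groups. Named genes were the 24 hosts with most bins, the longest runs (ties by CpG), the CpG extremes, the edges of the rule and up to 4 genes per list (1 list, 1 of its genes and 1 sequence are not reported here); other named genes were chosen after their values were seen. Members and lists were chosen with earlier results of these data known. Class rule, intervals and weighting were checked on made-up data. By name or RefSeq synonym, 44 of 48 imprinted symbols matched, and every symbol elsewhere. Sequence scans used numba 0.67.0 and numpy 2.4.6, tables pandas 2.3.3, intervals scipy 1.17.1 and plots matplotlib 3.10.9, in Python 3.11.15.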

Additional observations from a re-analysis of the deposited data

How the results depend on the processing

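The set depends most on the exon rule. Classed by bin midpoint, it held 4363 bins in 3165 genes (2.32% of intron bins), with medians of 12.6 CpG per kb, 46.3% GC, 49.8% along the gene and 21663 bp to a gene start, 21.4% in the first intron and 43.5% in a host with a MEF bin. With up to 10% exon allowed, it held 3367 bins in 2390 genes (2.06%), with 12 CpG per kb, 49% along the gene, 27035 bp, 21.1% and 49.8%. Apart from the share of intron bins, these values were computed for the set only, with no matching value over all intron bins. Without bins that touch a MEF bin, the share was 1.55% and 53.9% had a host with a MEF bin. With protein-coding genes only, the distance was 40587 bp. Without bins of over 20% repeated words, the share was 1.99%. The other alternatives for the set (exons of every gene type, 2 kb promoters, no wide models) left 1848 to 1865 bins in 1316 to 1343 genes, and the other 8 values stayed within their intervals.

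As ratios to all intron bins, CpG weighting moved the synaptic list to 0.644 and the ion channel list to 0.658, and turned the developmental factors to 0.9. Without wide models, an alternative added after seeing the data, the FGF list turned to 0.536. CpG weighting turned the OCT4 octamer to 1.02, CRE to 0.78 and TEAD to 1.01, and moved SOX2 to 0.914, ESRRB to 1.22, KLF4 to 1.2, ZFX to 1.03, MYC to 1.07, NRF1 to 1.18, CTCF to 1.08, SP1 to 1.03 and HpaII to 1. Weighting for place, neighbours and repeats, and the frame and tract counts, were also added after seeing the data. No paired analysis was possible because each group has 1 library. A stricter threshold could not be tried, since the lists give no score, and the depth is unknown.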
